A study of Mus musculus with 4 samples.

Results

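The genes of 9 leukocyte integrin chains were examined in peak lists of the transcription factor RUNX1 and of the histone mark H3K27me3 from mouse blood progenitors. They were the alpha chains Itgam, Itgal, Itgax, Itga4 and Itga6 and the beta chains Itgb2, Itgb1, Itgb7 and Itgb3, 9 of 21938 protein-coding genes of the annotation. A peak was counted at a gene when its summit, the base of highest signal, lay in the gene body or within 50 kb of either end. By this rule 27 of the 18389 peaks of the RUNX1 library labelled -DOX and 34 of the 21831 peaks of the RUNX1 library labelled +DOX were counted. The H3K27me3 library titled untr gave 2 of its 6356 peaks and the library titled DOX gave 7 of its 7233. The gene whose transcription start was nearest to the summit was recorded for each peak, and that gene was the integrin for 8 of the 27, 12 of the 34, and none of the 2 or the 7.

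All 4 libraries came from floating blood progenitors grown in vitro from mouse embryonic stem cells and taken at day 2. The cells carried a Tet-on dominant-negative FOS peptide (dnFOS), which keeps the JUN-containing AP-1 factors off DNA when doxycycline (DOX) is given. The labels give doxycycline for the +DOX RUNX1 library and no treatment for the -DOX RUNX1 library, but the run name written inside each of these lists gives the opposite treatment. The title and the treatment of each H3K27me3 library contradict each other, so these libraries carry no condition here. There was 1 library for each label, no replicate and no count of reads, so no difference between libraries could be tested and the depth is unknown. The cells were a bulk population, in which fewer cells with a site and weaker binding per cell cannot be told apart. Of all protein-coding genes 78% had a RUNX1 site by the same rule, with a median of 1.84 sites per 100 kb. Of 10 genes typical of blood progenitors, 9 had a site, with a median of 4.67 per 100 kb, and Kit had none, while 7 of 8 genes of other tissues had a site, with a median of 0.959 per 100 kb.

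Integrins are adhesion receptors made of an alpha and a beta chain, and the pairing decides which ligand is bound. Itgb2 pairs with Itgam, Itgal or Itgax on white blood cells and binds ICAM proteins and complement fragments during adhesion, migration and uptake of particles. Itga4 pairs with Itgb1 or Itgb7 and binds VCAM1, fibronectin or MADCAM1, while Itga6 pairs with Itgb1 to bind laminin. Itgb3 pairs with Itga2b on platelets and megakaryocytes, where it binds fibrinogen, and with Itgav on many cells. RUNX1 is a DNA-binding factor needed to make blood cells from endothelium and for megakaryocyte and lymphoid development, and H3K27me3 is the mark that Polycomb complexes place at silenced developmental genes.

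Sequence at the RUNX1 summits is shown for the strongest site nearest to each integrin start, and for the stronger sites that had a summit in 1 list. Each run is 100 bases of the plus strand of mm10, read from the RefSeq copy of that build (GRCm38.p6), with the summit at the centre. Capitals mark matches to consensus words searched on both strands: TGTGGTT for RUNX, CAGGAA or CCGGAA followed by A or G for ETS, GAGGAAGT for PU.1, TGAGTCA or TGACTCA for AP-1, TTGCNNAA for C/EBP and AGATAA for GATA factors. Matches of ETS and PU.1 may overlap. The words AACCACA and CTTCCTG are RUNX and ETS matches on the minus strand.
Itgb3, upstream, chr11:104596599-104596698: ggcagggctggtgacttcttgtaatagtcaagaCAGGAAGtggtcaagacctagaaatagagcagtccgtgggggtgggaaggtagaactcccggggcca
Itgb3, intron, 1 list, chr11:104614256-104614355: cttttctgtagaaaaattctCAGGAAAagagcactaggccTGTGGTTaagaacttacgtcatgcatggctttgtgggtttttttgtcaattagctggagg
Itgb2, intron, chr10:77531134-77531233: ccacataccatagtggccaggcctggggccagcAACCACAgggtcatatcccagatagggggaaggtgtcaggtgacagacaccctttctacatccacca
Itgb2, intron, 1 list, chr10:77551097-77551196: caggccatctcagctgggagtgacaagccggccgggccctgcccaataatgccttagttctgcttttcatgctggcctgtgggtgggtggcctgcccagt
Itgb1, promoter, chr8:128685527-128685626: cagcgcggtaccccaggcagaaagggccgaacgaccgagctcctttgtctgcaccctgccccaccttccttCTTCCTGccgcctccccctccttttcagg
Itga6, intron, chr2:71814154-71814253: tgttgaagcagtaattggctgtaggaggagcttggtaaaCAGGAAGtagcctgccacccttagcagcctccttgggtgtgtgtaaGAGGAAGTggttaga
Itga4, near the start, 1 list, chr2:79255826-79255925: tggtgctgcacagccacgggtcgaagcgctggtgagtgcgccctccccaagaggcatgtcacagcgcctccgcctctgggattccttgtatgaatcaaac
The word TGTGGTT starts 17 bases before the +DOX summit of the first Itgb2 site and 10 bases before the Itgb3 summit with 1 list. The -DOX summit of that Itgb2 site lies outside the bases shown. The ETS word of the upstream Itgb3 site starts 17 bases before its summit. In these 100 bases the Itga4 site and the second Itgb2 site held none of the words.

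RUNX1 sites were found around all 9 genes, but 4 of them, Itgam, Itgal, Itgax and Itgb7, were the nearest start of none. The site of Itga4 and the 3 of Itgam were lost at a -log10 q of at least 5. RUNX1 summits of either list, widened by 200 bp in both directions, were merged into sites. The 9 windows, which cover 1279 kb, held 40 sites. For 13 of the 40 an integrin had the nearest start, and for the other 27 it was a neighbouring gene. Itgb3 had 5 of the 13, Itga6 had 3, Itgb2 and Itgb1 had 2 each and Itga4 had 1. When only protein-coding starts were considered the 13 became 16, with 1 more each for Itgam, Itga6 and Itgb1. A peak of the -DOX library lay in the window of 8 of the 9 genes, where 73.5% of all protein-coding genes had at least 1, and a peak of the +DOX library lay in the window of 9 of 9, where 75.7% did. An integrin start was nearest to at least 1 site in 5 of 9 genes, against 51.8% of protein-coding genes. As a set, the 9 genes lay near the background in these counts.

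**Figure D1:**
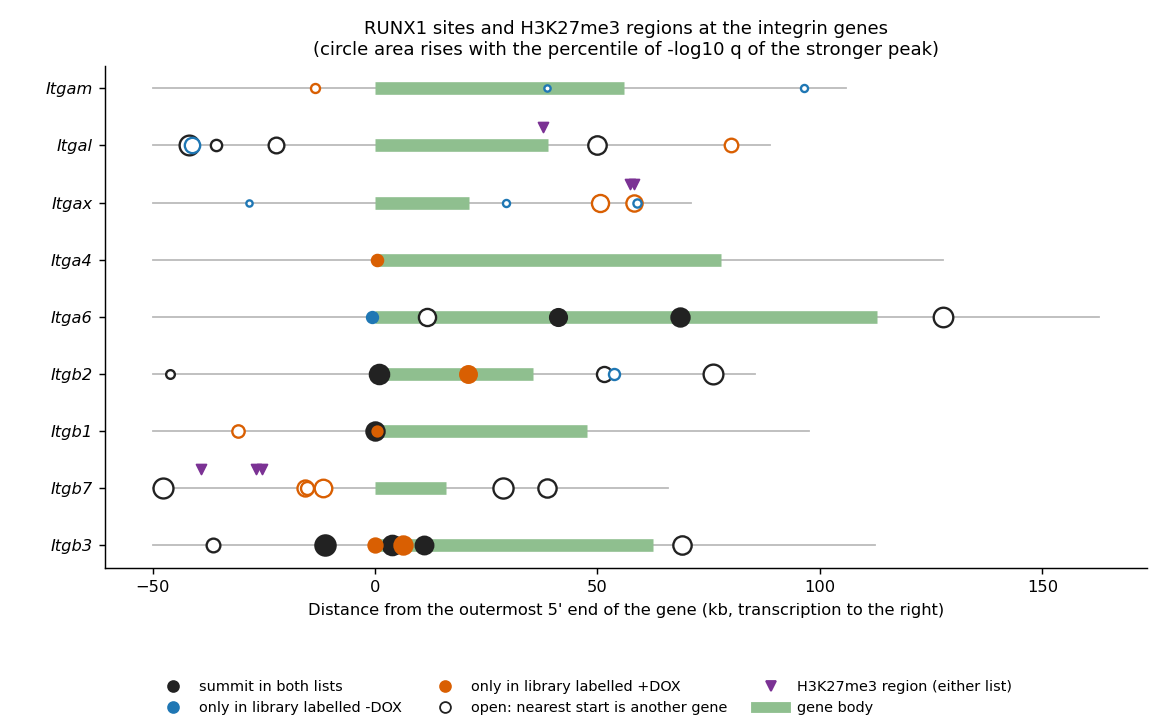
Position of RUNX1 sites (circles) and H3K27me3 regions (triangles) at each integrin gene, in kb from the outermost 5′ end of the gene, with the gene body in green and 50 kb on each side as a grey line. Filled circles mark the 13 sites whose nearest start is the integrin, colour gives the lists with a summit, and circle area rises with the percentile of -log10 q of the stronger peak. All 5 filled circles of Itgb3 lie between 11351 bp upstream and 10947 bp inside the gene.

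Among all protein-coding genes the median was 3 sites per window (quartiles 1 and 5) and 1.84 sites per 100 kb of window (quartiles 0.553 and 3.70). Itgb7 had the highest density of the 9 integrin genes, 5.17 sites per 100 kb, above 87.3% of protein-coding genes, although its own start was nearest to no site. Itgb2 had 4.43 sites per 100 kb, Itgal 4.32, Itgb3 4.31 and Itgax 4.13, each above 79.7% to 81.6% of protein-coding genes. Itga6 with 2.35, Itgb1 with 2.03 and Itgam with 1.92 stood above 52.4% to 57.7% of genes, and Itga4 with 0.563 above 25.1%. The order changed when sites were counted for the nearest start alone: Itgb3 then exceeded 98.8% of protein-coding genes, Itga6 93.0%, Itgb2 and Itgb1 81.0% each and Itga4 48.2%, the last being the share of genes with no such site.

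**Figure D2:**
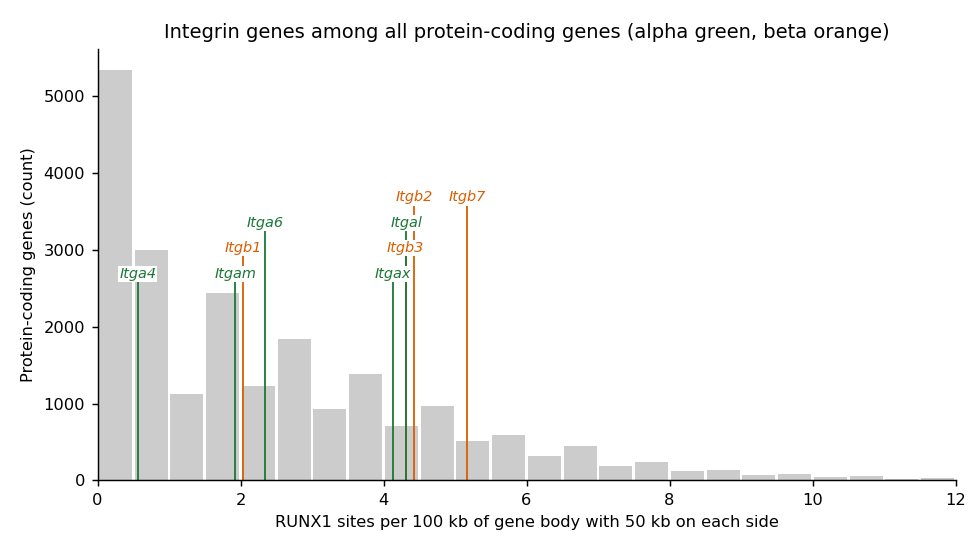
Histogram of RUNX1 sites per 100 kb of gene body with 50 kb on each side, over 21938 protein-coding genes (grey bars, cut at 12 per 100 kb), with a line for each integrin gene whose height has no meaning. Itga4 stands lowest at 0.563 and Itgb7 highest at 5.17 sites per 100 kb.

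Itgb3, the beta chain of the platelet fibrinogen receptor and of the vitronectin receptor, carried the strongest site of the 13. It lay on chromosome 11, 11351 bp upstream of the start in intergenic DNA, and held 2 ETS words in the 200 bp at its summit. Its fold enrichment over local background was 10.9 in the -DOX list and 9.52 in the +DOX list, and its -log10 q was 40.3 and 29.7. These values were at percentile 94.1 and 90.2 of -log10 q in their own lists, where percentile is the share of peaks in a list with a value at or below the peak's. A second Itgb3 site, 3740 bp into the gene in an intron and with a GATA word, had a fold of 7.04 and 6.40 and stood at percentile 85.2 and 83.4. Another, 10947 bp into the gene with a RUNX and a GATA word, had a fold of 4.62 and 5.22 and stood at 54.1 and 68.7. The remaining pair had a summit only in the +DOX list. Of these, the site in the UTR 53 bp from the start had a fold of 4.23 at percentile 40.02, and the intronic site 6306 bp into the gene had a fold of 5.38 at percentile 73.5. The latter was the only one of the 13 sites whose 200 bp held a RUNX, an ETS and a GATA word together.

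Itgb2, the beta chain common to the Itgam, Itgal and Itgax receptors, had its main site in an intron 804 bp from the nearest start, on chromosome 10. The fold enrichment was 7.52 in the -DOX list and 7.15 in the +DOX list, at percentile 81.9 and 84.4. The 804 bp and the 200 bp, which held a RUNX and a GATA word, were those of the +DOX summit. The -DOX summit merged with it lay outside these 200 bp, 1019 bp from the nearest start. A second intronic site, 20767 bp from the nearest start, had a summit only in the +DOX list, with a fold of 6.41, a -log10 q of 10.7, percentile 60.4 and a C/EBP word. Itgb2 thus differed from its alpha partners: Itgam, Itgal and Itgax had 3, 6 and 5 sites in their windows and the nearest start of none. Over the windows of Itgb2 and these partners together, 18 sites lay in 462 kb (3.89 per 100 kb), against 22 in 816 kb (2.69) for the remaining 5 genes, but 2 of the 18 and 11 of the 22 were nearest to an integrin start.

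Itgb1, the most widely used beta chain, had a promoter site 77 bp upstream of its start on chromosome 8, with 2 ETS words. Its fold was 6.43 in the -DOX list and 5.47 in the +DOX list, at percentile 73.8 and 52.3. A second summit only in the +DOX list, 221 bp from another Itgb1 start, had a fold of 3.97 at percentile 15.3, and the peak overlapped a peak of the -DOX list, so its place in 1 list rests on the summit alone. RefSeq promoter sequence, from 250 bp before to 50 bp after the start, was at hand for Itgam, Itgax, Itga4, Itgb1 and Itgb7, and of these 5 only the Itgb1 promoter held RUNX1 summits, from both lists. The same window held 1 ETS word at Itgam, and a GATA word and 1 AP-1 word at Itgax. It held 1 PU.1 word at Itgb7 and none of the 6 motifs at Itga4. Over 32851 RefSeq promoters an ETS word was found in 30.9%, AP-1 in 5.20%, GATA in 11.2% and PU.1 in 3.20%.

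Among the alpha chains Itga6, part of the laminin receptor, had 3 sites on chromosome 2. The intronic site 12558 bp from a start had a fold of 6.90 and 6.50 in the -DOX and +DOX lists, stood at percentile 73.3 and 66.4, and held an ETS and a PU.1 word. Another intronic site had a fold of 4.24 and 6.23 and stood at 31.4 and 61.9. It merged a +DOX summit 127 bp from an internal start with a -DOX summit 75 bp from an Itga6 start. The remaining site, 598 bp upstream of the gene, had a summit only in the -DOX list, at fold 4.32 and percentile 20.7, and was the only one of the 13 sites of that kind. A further site inside Itga6, at 65.3 and 39.4 with a RUNX and an ETS word, was assigned to the pseudogene Gm13739, and with protein-coding starts alone it belonged to Itga6.

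Itga4, the alpha chain that holds progenitors to VCAM1 and fibronectin, had 1 site in its window. It lay 71 bp from an Itga4 start, in an exon of a noncoding transcript of the gene, and had a summit only in the +DOX list, with a fold of 4.45, a -log10 q of 4.88 and percentile 21.9. No peak of the -DOX list lay within 50 kb, and the next RUNX1 site was 121 kb from the gene. Itgb1 stood in a similar stretch, its next site beyond the window being 180 kb away, whereas for Itgb3 and Itgal the first site outside the window was at 51.8 and 52.0 kb. The farthest sites inside a window were at Itgb7 and Itgb2, 47.7 and 46.0 kb from the gene.

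**Figure D3:**
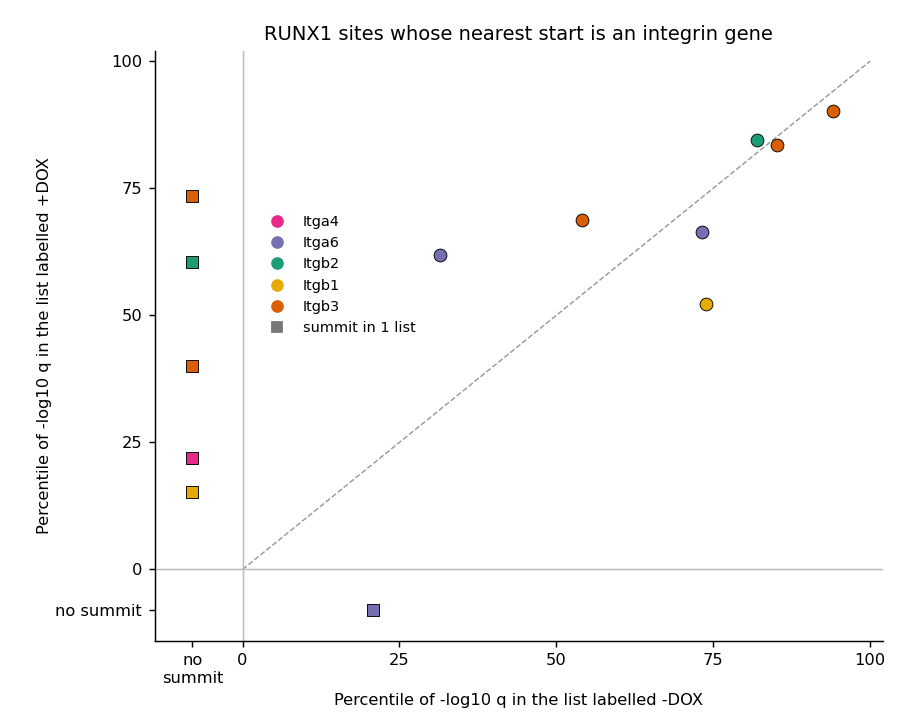
Percentile of -log10 q of the 13 RUNX1 sites nearest to an integrin start, in the list labelled -DOX (horizontal) and in the list labelled +DOX (vertical); squares on the margins have a summit in 1 list and the dashed line marks equal percentiles. Of the 7 sites in both lists 4 stand higher in the -DOX list, and the upstream Itgb3 site is highest in each, at 94.1 and 90.2.

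The sites at the integrin genes were divided between the lists much as all sites were. Both lists had a summit at 21 of the 40 (52.5%, 95% Wilson interval 37.5 to 67.1), against 56.8% of all 24972 sites. A summit only in the -DOX list was found at 6 (15%, 7.06 to 29.1), against 14.8%, and only in the +DOX list at 13 (32.5%, 20.1 to 48.0), against 28.4%. Of the 13 sites nearest to an integrin start, 7 were in both lists (53.8%, 29.1 to 76.8), 1 in the -DOX list only and 5 in the +DOX list only (38.5%, 17.7 to 64.5). Each background share lay inside the interval for the integrin sites, and these intervals cover counting error over sites and no variation between libraries. With the libraries exchanged, as the run names have it, the 6 and the 13 change places, and so do the 1 and the 5.

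Sites nearest to an integrin start ranged from percentile 15.3 to 94.1 of -log10 q in the list where they were stronger, with a median of 68.7. The median was 53.1 for the 27 sites of neighbours and 51.1 for all sites. Of the 13, 7 lay within 1500 bp of a transcription start (53.8%), against 53.9% of all sites. RUNX words were found at 3 of the 13 (23.1%, 8.18 to 50.3) and at 10 of the 40 (25%, 14.2 to 40.2), against 14.2% of all sites and 23.8% of those over 1500 bp from a start. ETS words were at 6 of the 13 (46.2%, 23.2 to 70.9) and at 9 of the 40 (22.5%, 12.3 to 37.5), against 29.9% of all sites, so the shares of the 13 and of the 40 lay on opposite sides of it. GATA words were at 4 of the 13 (30.8%, 12.7 to 57.6) and at 7 of the 40 (17.5%, 8.75 to 32.0), against 11.7% of all and 19.7% of the distant sites. Of the 4 GATA words, 3 were at Itgb3 and 1 at Itgb2. AP-1 words were found at none of the 13, with an upper bound of 22.8%, or of the 40, with an upper bound of 8.76%, against 4.97% of all sites, so a share equal to that of all sites was within reach of these counts. A match is a stretch of letters in the window and was not tied to binding of a factor.

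The beta chains had more sites for their length than the alpha chains. The 4 beta genes held 22 sites in 561 kb, or 3.92 per 100 kb (single genes 2.03 to 5.17), and the 5 alpha genes held 18 in 717 kb, or 2.51 per 100 kb (single genes 0.563 to 4.32). Sites nearest to the gene's own start numbered 9 for the beta chains and 4 for the alpha chains. Single genes made up much of these counts: Itgb3 had 5 of the 9 and Itga6 had 3 of the 4. All 6 sites of the Itgb7 window were nearest to another gene, as were those of Itgal, Itgam and Itgax. Gene bodies were counted by the summit of the stronger peak. There, 7 sites lay in 161 kb of beta genes (4.34 per 100 kb) and 5 in 306 kb of alpha genes (1.63). Itgb3 held 4 of the 7 and Itga6 held 3 of the 5. The ranges of single genes overlapped, and genes that share a window or a neighbourhood are not replicates, so no test was made. A summit only in the -DOX list was found at 5 of 18 alpha-chain sites (27.8%, 12.5 to 50.9). At the beta chains it was found at 1 of 22 (4.55%, 0.807 to 21.8). The intervals overlapped, and the share over all sites, 14.8%, lay inside both. Of the 5, 3 lay around Itgam and Itgax on chromosome 7, at percentile 0.0326, 2.85 and 7.17 of -log10 q. The others, in the windows of Itga6 and Itgal, stood at 20.7 and 50.2. The beta-chain site, in the Itgb2 window, stood at 21.2.

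**Figure D4:**
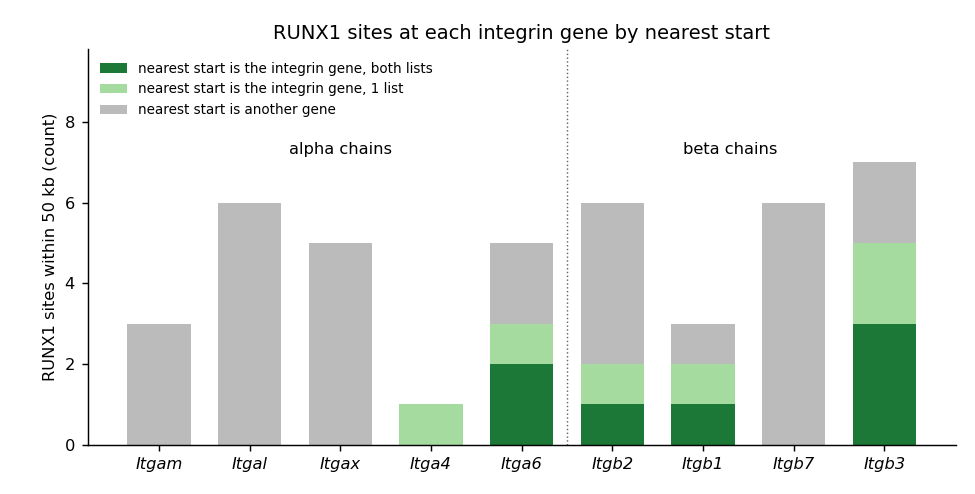
Number of RUNX1 sites in the gene body or within 50 kb of each integrin gene, stacked by nearest start (dark green, the integrin with summits in both lists; light green, the integrin with a summit in 1 list; grey, another gene). Sites in the windows of both Itgam and Itgax are drawn at each; Itgam, Itgal, Itgax and Itgb7 have no green, and Itgb3 has 5 sites in green.

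The genes without a site of their own differed in the rank of the sites around them. Around Itgal, the alpha chain that binds ICAM proteins on lymphocytes, 4 of the 6 had summits in both lists, and a neighbour was the nearest start of all 6. Dctpp1, a nucleotide-hydrolysing enzyme, was the nearest start of 3. The highest, 6316 bp away in a coding exon of another gene, stood at percentile 89.7 and 89.4 in the -DOX and +DOX lists. Zfp768 had 1 at 76.7 and 17.3, Sephs2, an enzyme of selenium metabolism, had 1 at 53.1 and 30.9, and Zfp747 had 1 only in the +DOX list at 36.9. Around Itgb7, the beta chain of gut-homing lymphocytes, Zfp740 stood at 87.5 and 93.7, Mfsd5 at 86.3 and 91.5, and Csad, an enzyme of taurine synthesis, at 1.69 and 74.8. Rarg, a retinoic acid receptor, had the other 3 sites of the Itgb7 window, all only in the +DOX list, at 68.6, 32.9 and 55.6.

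Itgam and Itgax, which encode the alpha chains typical of myeloid cells and lie side by side on chromosome 7, had no site with summits in both lists. The only site in the Itgam gene body, in an intron, had a fold of 2.97 and a -log10 q of 1.36 in the -DOX list, at percentile 0.0326. A site 13612 bp upstream of Itgam was only in the +DOX list, at percentile 10.8, with the pseudogene Gm9299 as its nearest start. It held a RUNX word, at least 1 C/EBP word and a GATA word. The gene body of Itgax held no site. A summit in an intron of Itgad, a related alpha chain next to Itgax, was only in the -DOX list at percentile 2.85. The other 3 sites of the Itgax window also lay in Itgad introns, with the antisense gene Gm39091 as the nearest start: 2 only in the +DOX list at 64.5 and 57.2, and 1 only in the -DOX list at 7.17. At the last pair 86.5% and 82% of the 200 bp were soft-masked as repeats. The highest percentile in either list was thus 10.8 in the Itgam window, 64.5 in the Itgax window, 89.7 in the Itgal window and 93.7 in the Itgb7 window.

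Neighbours also held sites beside integrins that had their own. In the Itgb2 window Sumo3, a small modifier protein, stood at 84.4 and 90.0, Pttg1ip had 2 sites, the highest at 48.1, and the noncoding gene 2810425M01Rik had 1 at 4.14 and 9.40. In the Itga6 window Pdk1, a kinase that restrains pyruvate dehydrogenase, stood at 87.8 and 70.4. In the Itgb3 window the pseudogenes Gm11662 and Gm11663 had 1 site each, at 75.9 and 33.4 and at 32.3 and 38.1. In the Itgb1 window Gm45746 had 1, only in the +DOX list at 29.2.

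An H3K27me3 peak lay in the window of 1 of the 9 genes in the library titled untr, where 33.2% of all protein-coding genes had at least 1, and in the window of 3 of the 9 in the library titled DOX, where 35.3% did. The 9 peaks merged into 6 regions, and no integrin was the nearest start of any, against 16.4% of protein-coding genes that were. The only region in both H3K27me3 lists stood at Rarg, in the Itgb7 window, at percentile 84.8 of -log10 q in the list titled untr and 87.7 in the list titled DOX. A weaker region at Rarg and a region at Gm9918, at 8.35 and 61.8, were in the list titled DOX alone. The Itgal window held a peak 74 bp wide in the UTR of Itgal, also in the list titled DOX alone, at percentile 5.005. In the Itgax window the list titled DOX had 2 regions at 83.3 and 89.0, over bases that were 89.5% and 86.5% soft-masked. The stronger of these had its summit 12 bp from a RUNX1 summit of the +DOX list. No H3K27me3 peak of either list lay in the windows of Itgam, Itga4, Itga6, Itgb2, Itgb1 or Itgb3. The nearest region to Itga4 was 1114 kb away and to Itgb1 987 kb. By the median, a called peak spanned 180 bp in the list titled untr and 122 bp in the list titled DOX. Whether the mark covered stretches that gave no peak was not tested, so these absences and distances concern called peaks alone. For these libraries the antibody label reads H3K27me3, whereas their chromatin protocol mentions only a RUNX1 antibody.

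Other genes of integrin adhesion were counted by the same rule. Of 17 further integrin chains, 16 had a RUNX1 site in the window and 9 were the nearest start of a site, 7 of them with summits in both lists. Over all protein-coding genes these shares were 78%, 51.8% and, for a nearest site in both lists, 38.9%, so the further chains lay near the background as nearest starts. Itga2b, the platelet partner of Itgb3, had the strongest, at percentile 97.8 in the -DOX list and 98.7 in the +DOX list. Of 16 ligands 15 had a site in the window, 7 were the nearest start of a site and 3 of a site in both lists, beside the same 3 shares of all genes. Vcam1, the ligand of Itga4 with Itgb1, had no peak in any of the 4 lists.

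Of 30 genes for activation and signalling inside the cell, all had a site in the window, 28 were the nearest start of a site, and 25 of a site in both lists, against 78%, 51.8% and 38.9% of all protein-coding genes. The strongest were at Vav1, a signalling protein of blood cells, at 98.4 and 98.2, and at Ptk2b, a kinase of the focal adhesion kinase family, at 96.3 and 99.1. Sites per 100 kb did not follow the same order: the median was 2.61 for these 30 genes, 3.19 for the further chains, 2.51 for the ligands and 4.13 for the 9 integrin genes. The lists were not matched for gene length.

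**Figure D5:**
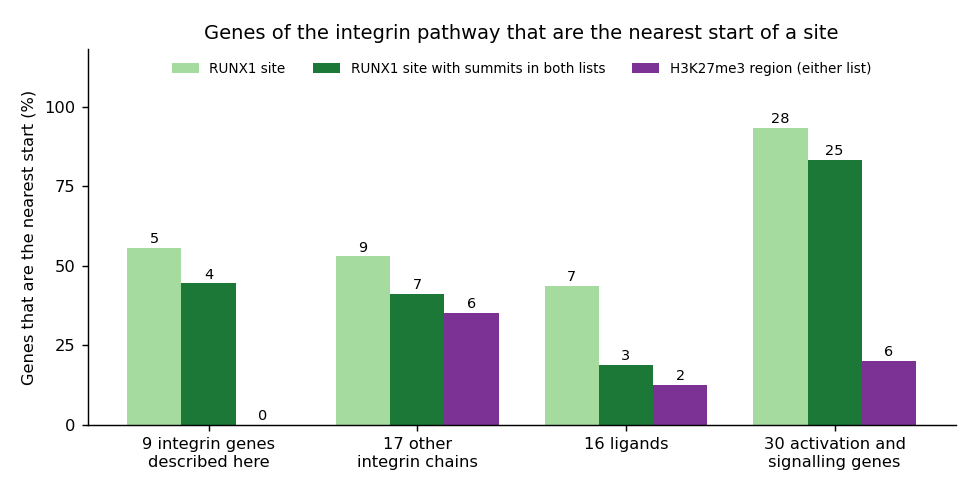
Share of genes in each list, in percent, that are the nearest start of a RUNX1 site (light green), of a RUNX1 site with summits in both lists (dark green) and of an H3K27me3 region in either list (purple), with the number of genes above each bar. The 9 integrin genes have 5, 4 and 0, and the 30 activation and signalling genes have 28, 25 and 6.

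H3K27me3 peaks of both lists lay in the window of 6 of the 17 further chains (Itga3, Itga9, Itga10, Itgb4, Itgb5 and Itgb8). So did they for 6 of the 16 ligands (Icam1, Icam4, Icam5, Madcam1, Vtn and Cdh1). Of the 30 activation and signalling genes 7 had them (Fermt1, Fermt2, Apbb1ip, Rasgrp2, Ilk and Fgr among them), against 28.5% of all protein-coding genes. Icam1, Icam4 and Icam5, all on chromosome 9, had the same counts, 3 peaks titled untr and 1 titled DOX. The 6 ligands may thus be fewer separate loci. A further chain was the nearest start of a region in 6 of 17 genes, against 16.4% of all. Itgb8 had 2 regions of its own and no RUNX1 site, while Itga9 had 4 regions and also 3 RUNX1 sites of its own. Among the 9 integrin genes described here the count for both lists was 1, Itgb7, through the region at Rarg.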

How the data were processed

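Per the study's methods, RUNX1 reads were trimmed (Trimmomatic), mapped to mm10 (Bowtie2) and cleared of duplicates (Picard). MACS2 was then run with a q-value threshold of 0.05. The methods also filtered peaks against an mm10 blacklist and repeat list, and whether the lists used here had this step was not examined. The submitters' processing notes give Bowtie2 2.2.9, which differs from the version in the methods, and MACS2 2.1.1. An input control and the processing of the H3K27me3 libraries were not given in the sources used here. The deposited columns used here are the ratio of the summit signal to local background (fold enrichment), the -log10 of the q-value, and the offset of the summit. These values were ranked only within their own list. Depth is unknown, since the lists hold no counts.

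Summits on the autosomes, X and Y were set against GENCODE vM21 gene bodies with 50 kb on each side. RUNX1 summits were extended by 200 bp and merged where they touched. The nearest start was that of any transcript. Words were searched in the 200 bp at the summit of the stronger peak. Python 3.11.15, numpy 2.4.6, scipy 1.17.1 (Wilson intervals), pysam 0.24.0 and matplotlib 3.10.9 were used, and the merging and word search were tested on simulated data. The members and lists were chosen with earlier results of these data known. Named were all 9 members, each neighbour with a site, and pathway genes with the 3 highest percentiles per RUNX1 list or with H3K27me3 peaks of both lists, of which 1 is not reported here, and Kit, Vcam1 and Itgad were added after their values were seen. Sequences were shown for the strongest site of each member and for sites in 1 list at or above percentile 50. There was 1 library for each label, so no replicate could be left out. Alternatives changed the window, the q-value, the extension, the length of the lists, the rule for a site in 1 list, the labels, the start used and the consensus, and leaving out repeats was added after seeing the data.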

Additional observations from a re-analysis of the deposited data

How the results depend on the processing

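No paired analysis was possible because there was 1 library for each label, and no replicate could be left out. Of the 60 summary values recomputed under alternatives, 37 stayed within 1.5 times the reported value or inside its interval. Of 135 recomputed counts for single genes, 98 stayed within 1.5 times. At a -log10 q of at least 5 or 10, and with the 10000 strongest peaks, the windows of Itgam and Itga4 held 0 sites, so RUNX1 sites were then not found around all 9 genes. In gene bodies alone and within 10 kb, Itgal and Itgb7 had 0 sites, and Itgax had 0 and 1. In gene bodies alone, by any summit, there were 13 RUNX1 sites, 1 only in the list labelled -DOX and 5 only in the list labelled +DOX, 1 H3K27me3 region and 1.63 alpha-chain sites per 100 kb. Within 10 kb there were 16 sites, 3 and 5 in 1 list, and 1 H3K27me3 region. At a -log10 q of at least 5 there were 2 sites only in the -DOX list and 1.53 alpha-chain sites per 100 kb. At 10 or more there were 21 sites, 8 only in the +DOX list, 3 H3K27me3 regions, and 1.12 and 2.32 sites per 100 kb at alpha and beta chains. With the 10000 strongest peaks of each list there were 24 sites, 8 only in the +DOX list, and 1.39 and 2.49 per 100 kb. With summits widened by 100 bp there were 43 sites, 9 only in the -DOX list and 16 only in the +DOX list. An integrin start was then nearest to 15, and the windows of Itgal, Itga6 and Itgb2 held 7, 6 and 7 sites. The class of a site in both lists thus depends in part on the merging. With the libraries exchanged, 13 sites were only in the -DOX list and 6 only in the +DOX list. Of the H3K27me3 regions, 1 was in both lists. The beta chains stood above the alpha chains in each of the 7 alternatives that recompute both. These alternatives reuse the same peaks at the same genes, so they are not separate tests of this order. Raising the threshold removes the weaker peak of a site in both lists, which then counts as a site in 1 list. Without sites at least 50% soft-masked, an alternative chosen after seeing the data, 38 RUNX1 sites and 4 H3K27me3 regions were left.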
